A study of Mus musculus with 10 samples.

Results

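Protocadherins were examined in neuroblastomas of 10 transgenic mice, as the 47 genes whose array name begins with Pcdh among the 36161 gene names on the array. Of these, 35 were clustered protocadherins (7 alpha, 22 beta and 6 gamma genes) and 12 were non-clustered. Each gene was read by its brightest probe over the 10 arrays. Of the 47 genes, 38 were bright enough to be tested, 27 clustered and 11 non-clustered, and the other 9 are described at the end. The rule used gene names and brightness only, not the comparison between genotypes.

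In 5 mice, labelled ALK+/-, MYCN+/- and here called ALK/MYCN, the tumour carried mutant ALK (F1174L), a receptor tyrosine kinase, together with a MYCN transgene, on a C57BL/6 x 129X1/SvJ background. In the other 5, labelled MYCN+/- and called MYCN, the tumour carried the MYCN transgene without mutant ALK, on 129X1/SvJ. All 10 tumours were untreated and all carried MYCN. The promoters that drive the transgenes and the ages of the mice are not given in the sources used here. Because the backgrounds differ, genotype and strain cannot be told apart in any difference below. Tumour RNA in Cy3 was hybridised with a Cy5 reference RNA from 11 mouse cell lines, so the values are log2 ratios, tumour to reference, and a negative value means a lower signal than in those cell lines. All arrays had the same dye orientation. In bulk tumour RNA, fewer cells of a type and less RNA per cell cannot be told apart.

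Protocadherins are cadherin-like cell surface proteins that are most abundant in the nervous system. The clustered genes lie in 3 tandem arrays, and a neuron transcribes a small selection of them by choosing among their promoters with the help of CTCF and cohesin, which gives each cell a surface identity used in self-recognition of its own branches. Alpha and gamma genes splice a variable first exon onto constant exons shared by the whole cluster, whereas each beta gene is a single coding exon with no constant part. The non-clustered genes are dispersed over the genome, are spliced on their own, and have individual roles in axon growth, synapses, hearing and blood vessels.

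The comparison sets tumours with mutant ALK against tumours without it. The differences of the clustered genes were mostly positive, while those of the non-clustered genes went both ways. At an adjusted p of 0.05 (limma, Benjamini-Hochberg over all genes tested), 13 of 27 tested clustered genes were higher and 0 were lower in ALK/MYCN tumours. Of the 13, Pcdhac2, Pcdha8 and Pcdhga9 were called on probes listed for several genes. The other Pcdhac2 probe did not pass, and the other Pcdhga9 probe went the other way. Pcdhb9 was above background on 1 of 5 MYCN arrays. Over all 22258 genes tested, 14.2% were called higher and 12.2% lower, 26.5% in all. At an unadjusted p of 0.05, the clustered genes still gave 0 lower calls. The differences of the 27 clustered genes had a median of 0.37 on the log2 scale, 24 were positive and 3 negative, against a median of -0.0035 over all genes. With stromal content as a covariate the clustered median was 0.23, with 20 of 27 positive and 10 called higher, 9 of them among the 13. Without a filter on dim probes the median over all 35 was 0.22, with 28 positive and 13 called higher. Of the 11 tested non-clustered genes, 1 was higher (Pcdh17) and 4 were lower (Pcdh10, Pcdh12, Pcdh15 and Pcdh18), with a median difference of -0.11. Over all genes, 19.9% had groups that did not overlap. They did not overlap in 11 clustered genes, all with ALK/MYCN higher, where 11.3% of all genes did not overlap in that direction. They did not overlap in 1 higher and 3 lower non-clustered genes, where 8.6% of all genes did not overlap with ALK/MYCN lower. The difference between the clustered and non-clustered classes was not tested.

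Some facts of the tumours stand beside these counts. All 14 markers of sympathetic neuroblasts were measured, and in ALK/MYCN tumours 5 were higher and 0 lower. Markers of Schwann cells and glia were 5 higher and 0 lower of 8 measured, and their mean ratio, centred over the tumours, was 0.19 to 0.86 in ALK/MYCN tumours, against -0.75 to -0.11 in MYCN tumours. Endothelial markers were 9 lower and 0 higher of 12, with means of -0.78 to 0.05 in ALK/MYCN tumours, against -0.04 to 1.06 in MYCN tumours. Macrophage markers were 7 lower and 1 higher of 11, with means of -0.62 to -0.13 in ALK/MYCN tumours, against -0.31 to 0.78 in MYCN tumours. The part of these cells in the protocadherin differences was not tested. Adrenal cortex markers stood apart in ALK/MYCN 3, skeletal muscle markers in MYCN 1 and MYCN 2, and kidney markers in MYCN 5. Without ALK/MYCN 3, MYCN 2 and MYCN 5 together, 11 clustered genes were higher and 0 lower, and 1 non-clustered gene was higher and 3 lower. Without MYCN 1 as well, which left 4 ALK/MYCN and 2 MYCN tumours and was added after seeing the data, 9 clustered genes were higher and 0 lower, and 0 non-clustered genes were higher and 3 lower.

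In the alpha cluster, 3 of 6 tested genes were called, all higher in ALK/MYCN tumours, and the differences of all 6 were positive. Over all 22258 genes tested, 14.2% were called higher and 11022 had positive differences. Pcdhac2 is a C-type isoform that neurons can express without stochastic choice. The probe used for it, which is shared with other alpha genes, had the largest difference of the tested protocadherins. Its ratios were 4.08, 3.75, 3.88, 4.56 and 4.51 in ALK/MYCN tumours 1 to 5, against 2.89, 2.4, 2.69, 2.19 and 2.75 in MYCN tumours 1 to 5. Every ALK/MYCN tumour lay above every MYCN tumour. The difference was 1.57 ± 0.19 (SE), or 2.97-fold (limma adjusted p = 0.00067).

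That probe does not read Pcdhac2 alone. It lies at chr18:37347235-37347294 (mm9, plus strand), 41.5 kb beyond the gene's other probe, and the array lists transcripts of Pcdha4, Pcdha9, Pcdhac1 and Pcdhac2 under it, so its signal can come from several alpha transcripts. The other probe, which lists Pcdhac2 only (chr18:37305687-37305745), read 1.14, 0.74, 0.56, 1.03 and 1.45 in ALK/MYCN tumours 1 to 5, against 0.66, 0.84, 0.72, 0.36 and 0.43 in MYCN tumours 1 to 5. The groups overlapped on this probe, with a difference of 0.39 ± 0.17 (SE) that did not pass (limma adjusted p over probes = 0.12). The mean of both probes differed by 0.98 (limma adjusted p = 0.0025). The call under the name Pcdhac2 is thus one on the shared probe, and the probe of the isoform itself did not pass.

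Pcdha8, a stochastically chosen alpha isoform, is also read by a shared probe, listed for Pcdha4, Pcdha7, Pcdha8 and the predicted gene Gm37013 (chr18:37154205-37154264). Its ratios were 3.49, 3.42, 3.49, 3.73 and 3.64 in ALK/MYCN tumours 1 to 5, against 2.94, 2.39, 2.92, 2.49 and 3.12 in MYCN tumours 1 to 5. The groups did not overlap, and the difference was 0.78 ± 0.14 (SE; limma adjusted p = 0.0040). A probe 209 bases away that lists Pcdha8 alone gave 0.47 ± 0.14 (SE; limma adjusted p over probes = 0.036), with overlapping groups.

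Pcdha12, whose probe lists no other gene, is the isoform-specific alpha call without overlap. It read 1.98, 1.96, 1.85, 2.36 and 2.03 in ALK/MYCN tumours 1 to 5, against 1.65, 1.23, 1.27, 1.25 and 1.51 in MYCN tumours 1 to 5. All ALK/MYCN tumours were above all MYCN tumours, by 0.65 ± 0.12 on average (SE; limma adjusted p = 0.0037). The reference was above background on 0 of the 10 arrays for this probe, so its ratio is set against a reference near background, and the offset added to both channels shrinks such ratios.

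The other tested alpha isoforms did not pass. Pcdha4 read 1.9, 1.08, 1.55, 1.74 and 1.44 in ALK/MYCN tumours 1 to 5, against 1.21, 0.54, 1.33, 0.85 and 1.72 in MYCN tumours 1 to 5. Its difference was 0.41 (95% interval -0.09 to 0.90), and it turned to -0.48 with the scanner's own processed signals and to -0.47 in the authors' value table, neither of which passed. Pcdha11 differed by 0.32 (95% interval 0.01 to 0.63) and Pcdha9 by 0.24 (95% interval -0.19 to 0.67), both with overlapping groups. Over the 6 alpha genes, ALK/MYCN 4 held the highest value of 3 genes, and MYCN 2 and MYCN 4 held the lowest of 3 each.

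**Figure D1:**
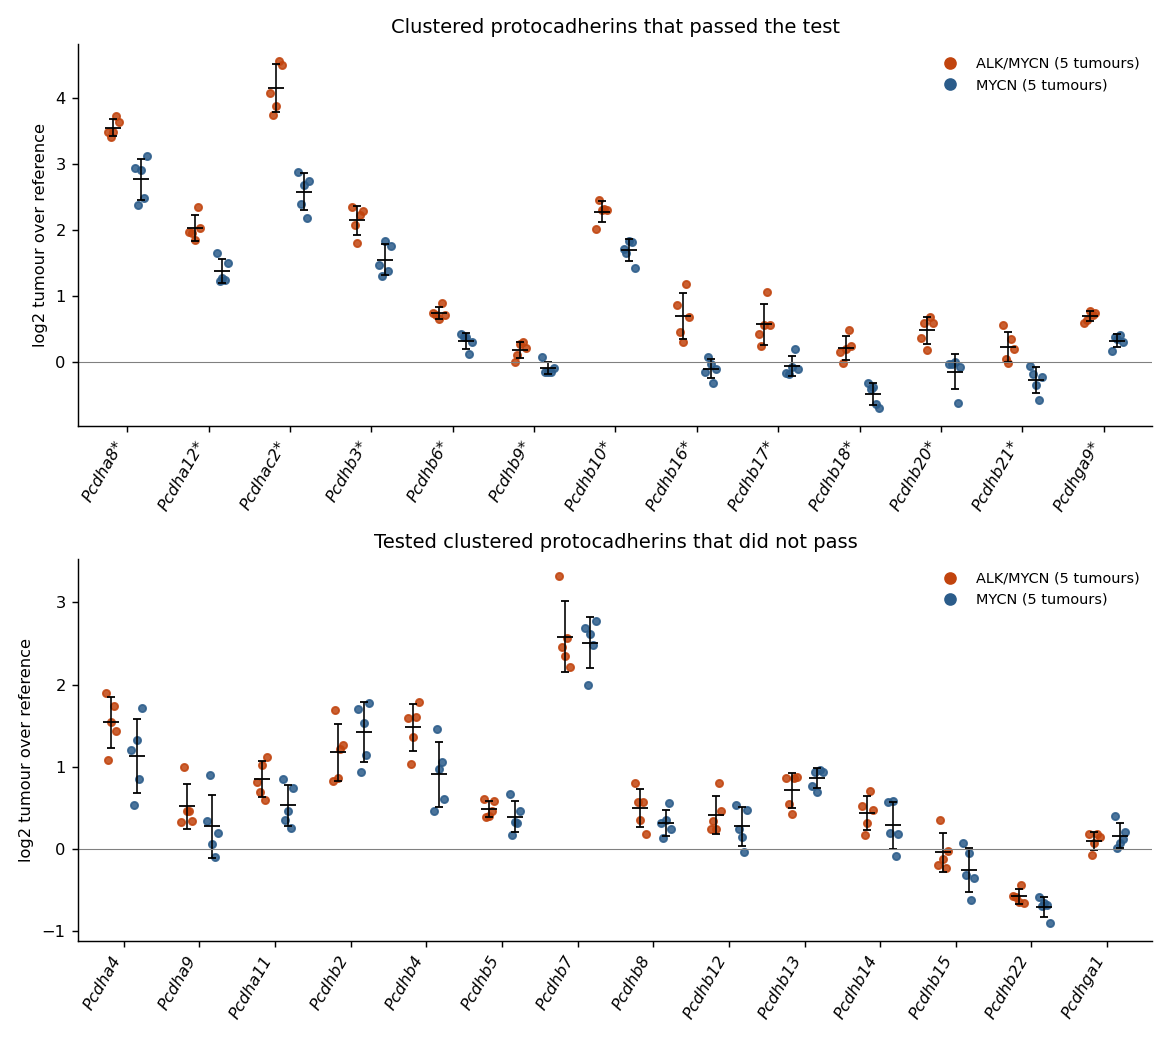
Log2 ratio of tumour over reference (vertical axis) of each tested clustered protocadherin, with 1 point per tumour, ALK/MYCN at left and MYCN at right of each gene, and bars for the mean and SD of 5 tumours. Upper panel, the 13 genes that passed, of which Pcdhb3 and Pcdhb9 overlap between groups; lower panel, the 14 that did not. Genes differ in their probes, so heights are compared within a gene only.

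The beta cluster holds 19 of the 27 tested clustered genes and supplied 9 of the 13 calls. Each of the 9 was higher in ALK/MYCN tumours, and 7 of them did not overlap. The share called was 47.4%, against 50% of the alpha genes. Over all genes, 14.2% were called higher and 11.3% did not overlap in that direction. Every beta probe lists a single gene, although beta genes resemble each other closely and cross-hybridisation between them was not tested. The calls include an unbroken run of tested genes near the downstream end of the cluster. From Pcdhb16 to Pcdhb21, a stretch of 33.8 kb, all 5 tested genes were called, with Pcdhb19 between them too dim to test, while the next gene on each side, Pcdhb15 and Pcdhb22, did not pass. The ends of the run moved once slide was a block, as Pcdhb15 passed (0.31, limma adjusted p = 0.043) and Pcdhb21 did not, and with spike-in centring Pcdhb15 passed too (0.46, limma adjusted p = 0.034). Spike-in centring moved the median over all genes from -0.0035 to 0.23. Under it the differences of Pcdhb6 (0.70), Pcdhb9 (0.47) and Pcdhb21 (0.77) were larger too. That centring also gave calls to Pcdhb14 (0.43, limma adjusted p = 0.041) and Pcdhb22 (0.41, limma adjusted p = 0.0023). Further upstream it called Pcdhb4 (0.88, limma adjusted p = 0.0094) and Pcdhb12 (0.41, limma adjusted p = 0.038). Median centring likewise called Pcdhb22 (0.27, limma adjusted p = 0.041) but not Pcdhb15 (0.32, limma adjusted p = 0.14), and the median over all genes was then 0.094. Both ends of the run thus depended on the centring, the downstream end at Pcdhb21 under both centrings and the upstream end at Pcdhb16 under spike-in centring.

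Pcdhb16 had the largest beta difference. It read 0.87, 0.46, 0.3, 1.18 and 0.68 in ALK/MYCN tumours 1 to 5, against -0.14, 0.08, -0.03, -0.31 and -0.1 in MYCN tumours 1 to 5. Every ALK/MYCN tumour lay above every MYCN tumour, and the difference was 0.80 ± 0.16 (SE; 1.74-fold; limma adjusted p = 0.0057). Pcdhb17 read 0.43, 0.25, 0.56, 1.07 and 0.56 in ALK/MYCN tumours 1 to 5, against -0.16, -0.18, -0.07, 0.2 and -0.1 in MYCN tumours 1 to 5. These groups met closely, with ALK/MYCN 2 just above MYCN 4, and differed by 0.63 ± 0.14 (SE; limma adjusted p = 0.011). Without ALK/MYCN 3, MYCN 2 and MYCN 5, Pcdhb17 no longer passed (0.58, limma adjusted p = 0.086), nor did it without MYCN 1 as well (0.51, limma adjusted p = 0.19).

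Pcdhb18 read 0.16, -0.01, 0.2, 0.49 and 0.25 in ALK/MYCN tumours 1 to 5, against -0.31, -0.41, -0.37, -0.63 and -0.7 in MYCN tumours 1 to 5. The groups were well apart, with ALK/MYCN tumours near or above the reference and MYCN tumours below it, and differed by 0.70 ± 0.11 (SE; limma adjusted p = 0.0020). Pcdhb20 read 0.37, 0.6, 0.18, 0.68 and 0.59 in ALK/MYCN tumours 1 to 5, against -0.03, -0.02, 0.01, -0.61 and -0.07 in MYCN tumours 1 to 5. Here the MYCN tumours lay together except for MYCN 4, which was lower, and the groups differed by 0.63 ± 0.14 (SE; limma adjusted p = 0.010). Pcdhb21 read 0.56, 0.05, -0.01, 0.36 and 0.2 in ALK/MYCN tumours 1 to 5, against -0.05, -0.18, -0.35, -0.57 and -0.22 in MYCN tumours 1 to 5. Its groups were adjacent, ALK/MYCN 3 lying just above MYCN 1, with a difference of 0.50 ± 0.13 (SE; limma adjusted p = 0.018). Pcdhb20 and Pcdhb21 lost their calls with stromal content as a covariate (0.46, limma adjusted p = 0.084, and 0.27, limma adjusted p = 0.15), and Pcdhb21 also with slide as a block (0.52, limma adjusted p = 0.056) and in Cy3 alone (0.44, limma adjusted p = 0.052).

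The other beta calls lay further upstream. Pcdhb10 read 2.02, 2.46, 2.3, 2.33 and 2.31 in ALK/MYCN tumours 1 to 5, against 1.72, 1.66, 1.84, 1.83 and 1.43 in MYCN tumours 1 to 5. The groups did not overlap and differed by 0.59 ± 0.10 (SE; limma adjusted p = 0.0036). Pcdhb6 read 0.74, 0.71, 0.66, 0.9 and 0.72 in ALK/MYCN tumours 1 to 5, against 0.43, 0.38, 0.39, 0.13 and 0.3 in MYCN tumours 1 to 5. It had the tightest spread among the ALK/MYCN tumours of the beta calls (SD 0.09, n = 5), with a difference of 0.42 ± 0.07 (SE; limma adjusted p = 0.0037). Pcdhb3 read 2.36, 2.08, 1.81, 2.23 and 2.29 in ALK/MYCN tumours 1 to 5, against 1.48, 1.3, 1.84, 1.39 and 1.76 in MYCN tumours 1 to 5. Its probe is spotted 10 times on each array, and the groups overlapped only where MYCN 3 exceeded ALK/MYCN 3. The difference was 0.60 ± 0.14 (SE; limma adjusted p = 0.011), and it missed the threshold with stromal content as a covariate (0.49, limma adjusted p = 0.079). The reference was above background on 0 of the 10 arrays for Pcdhb3 and for Pcdhb10. In the authors' value table the differences were larger, 1.04 for Pcdhb10, 0.95 for Pcdhb3 and 1.10 for Pcdhb18, and with the scanner's processed signals Pcdhb10 differed by 0.96. Without ALK/MYCN 3 and MYCN 1, 2 and 5, Pcdhb10 did not pass (0.44, limma adjusted p = 0.076).

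Pcdhb9 was the weakest beta call. It read 0.01, 0.11, 0.28, 0.31 and 0.21 in ALK/MYCN tumours 1 to 5, against 0.08, -0.14, -0.15, -0.14 and -0.09 in MYCN tumours 1 to 5. It was above background on all 5 ALK/MYCN arrays but on 1 of 5 MYCN arrays, so it entered the test largely through the group in which it is higher, and its difference of 0.27 ± 0.08 (SE; limma adjusted p = 0.030) lies close to background. The call was lost in 7 of the 10 fits that left out 1 tumour (largest limma adjusted p = 0.067), those without ALK/MYCN 3, 4 or 5 or MYCN 2, 3, 4 or 5. It was also lost with slide as a block (0.26, limma adjusted p = 0.092), with stromal content as a covariate (0.23, limma adjusted p = 0.15) and without ALK/MYCN 3, MYCN 2 and MYCN 5 (0.23, limma adjusted p = 0.18). The reference was above background on 0 of the 10 arrays. The size of the difference moved with the processing: it was 0.41 in Cy3 alone, 1.29 with the scanner's processed signals (limma adjusted p = 0.010) and 1.20 in the authors' value table (limma adjusted p = 0.018). Pcdhb8 entered in the same way, above background on 5 ALK/MYCN and 2 MYCN arrays, and did not pass (0.17, 95% interval -0.10 to 0.45).

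Of the 10 beta genes that did not pass, Pcdhb4 came nearest. It read 1.6, 1.04, 1.36, 1.61 and 1.79 in ALK/MYCN tumours 1 to 5, against 0.46, 1.46, 0.97, 1.06 and 0.61 in MYCN tumours 1 to 5. MYCN 2 and MYCN 4 lay inside the range of the ALK/MYCN tumours, and the difference was 0.57 (95% interval 0.12 to 1.01; limma adjusted p = 0.060). Without MYCN 2 it passed (0.70, limma adjusted p = 0.022), as it did without ALK/MYCN 2 (0.68, limma adjusted p = 0.036). With all tumours it passed under slide as a block (0.61, limma adjusted p = 0.043) and the stromal covariate (0.85, limma adjusted p = 0.028). It also passed under median centring (0.74, limma adjusted p = 0.037) and spike-in centring (0.88, limma adjusted p = 0.0094). It did not pass with the replicate block (0.57, limma adjusted p = 0.15) or in the authors' value table (0.67, limma adjusted p = 0.29). Pcdhb2 read 0.83, 1.69, 0.87, 1.22 and 1.27 in ALK/MYCN tumours 1 to 5, against 1.71, 0.94, 1.54, 1.15 and 1.78 in MYCN tumours 1 to 5. It had the most negative clustered difference, -0.25 (95% interval -0.71 to 0.21), with groups that overlapped over most of their range. The intervals of Pcdhb7 (-0.41 to 0.56), Pcdhb12 (-0.17 to 0.45), Pcdhb14 (-0.18 to 0.47) and Pcdhb15 (-0.13 to 0.54) also held 0, as did those of Pcdhb5 (-0.12 to 0.31), Pcdhb13 (-0.38 to 0.09) and Pcdhb22 (-0.04 to 0.30).

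The beta genes also varied among tumours of a genotype. ALK/MYCN 4 held the highest value of 9 of the 19 tested beta genes and of 6 of the 9 called ones, and ALK/MYCN 1 of 4 of the 19. MYCN 4 held the lowest value of 7 of the 19 and MYCN 2 of 5. Centred per gene, the 19 beta genes averaged 0.21, 0.11, 0.01, 0.32 and 0.18 in ALK/MYCN tumours 1 to 5, against -0.07, -0.21, -0.10, -0.27 and -0.17 in MYCN tumours 1 to 5. ALK/MYCN 3, the tumour with adrenal cortex markers, was the lowest of its group.

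**Figure D2:**
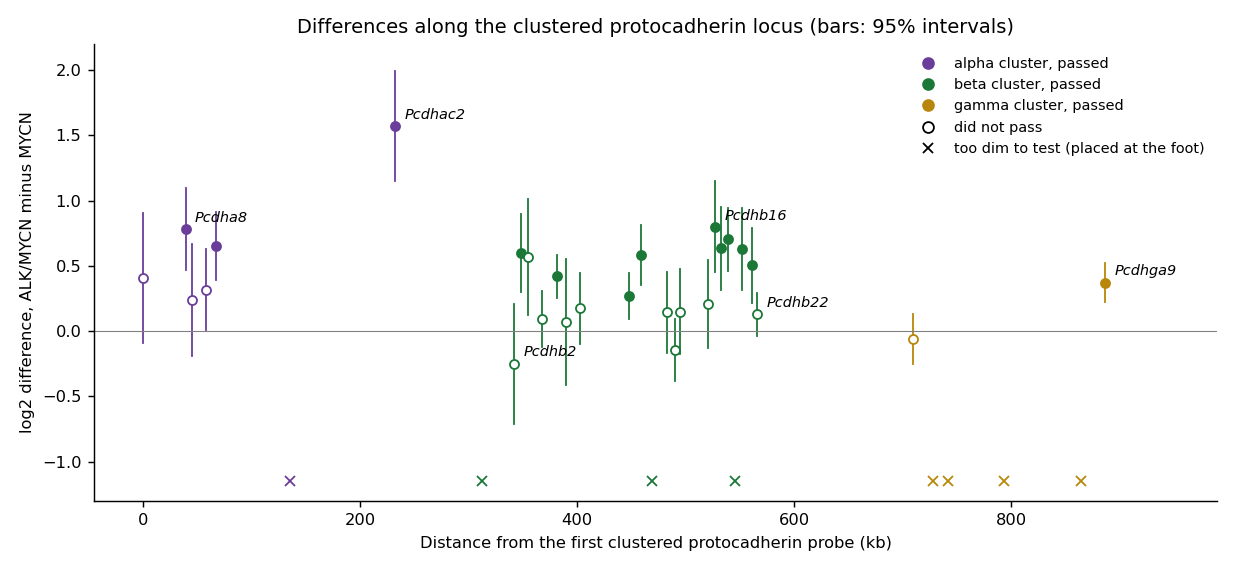
Difference in log2 ratio, ALK/MYCN minus MYCN (vertical axis, bars for the 95% interval), of each clustered protocadherin against the distance of its probe from the first clustered probe (horizontal axis, kb). Filled circles passed the test, open circles did not, and crosses at the foot mark the 8 genes too dim to test. The 5 filled beta circles that follow each other start at Pcdhb16. The probe used for Pcdhac2, shared with other alpha genes, stands highest at 1.57.

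Of the 6 gamma genes on the array, 2 were bright enough to test. Pcdhga9 is read by probes that list several gamma transcripts, so neither reads the isoform alone. Its brightest probe, listed for Pcdhga1, Pcdhga5, Pcdhga6 and Pcdhga9 (chr18:38001378-38001437, mm9), read 0.6, 0.64, 0.78, 0.72 and 0.74 in ALK/MYCN tumours 1 to 5, against 0.17, 0.39, 0.35, 0.42 and 0.3 in MYCN tumours 1 to 5. The groups did not overlap, and the difference was 0.37 ± 0.07 (SE; limma adjusted p = 0.0038). A probe 1.65 kb upstream, listed for Pcdhga5, Pcdhga6, Pcdhga9 and Gm37013, read 0.6, 0.88, 0.92, 0.64 and 0.64 in ALK/MYCN tumours 1 to 5, against 0.78, 1.23, 1.06, 1.07 and 0.86 in MYCN tumours 1 to 5. This probe went the other way, by -0.26 ± 0.10 (SE; limma adjusted p over probes = 0.092), and the mean of both was 0.05 (limma adjusted p = 0.65). Without ALK/MYCN 3 and MYCN 1, 2 and 5, the brightest probe did not pass (0.30, limma adjusted p = 0.080). No direction for gamma transcripts follows from probes that disagree. Pcdhga1, a variable gamma isoform, differed by -0.06 (95% interval -0.25 to 0.13), and its values turned to 0.09 with spike-in centring.

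Among the non-clustered genes, Pcdh18, which in mouse binds the adaptor Dab1, had the lowest difference of the tested protocadherins. It read -3.11, -3.29, -2.54, -3.32 and -3.12 in ALK/MYCN tumours 1 to 5, against -1.42, -2.49, -1.39, -0.56 and -1.84 in MYCN tumours 1 to 5. All tumours were below the cell-line reference, the ALK/MYCN tumours lay lowest, and ALK/MYCN 3 nearly met MYCN 2. The difference was -1.54 ± 0.31 (SE; 0.345-fold; limma adjusted p = 0.0067), and it was -2.51 with the scanner's processed signals and -2.43 in the authors' value table. Markers of fibroblasts and pericytes ranged from -1.28 to 0.11 in ALK/MYCN tumours and from -1.51 to 1.98 in MYCN tumours, with 2 of 12 lower. With stromal content as a covariate Pcdh18 just missed the threshold (-1.28, limma adjusted p = 0.053).

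The Pcdh18 probe (chr3:49547305-49547364, mm9, minus strand) begins as shown here with 30 of its 60 bases, to identify the site read.
Pcdh18: gaatgccttggtaagtgagatctttactat

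Pcdh12, known as vascular endothelial cadherin-2 and found in endothelium, was also lower. It read 1.16, 1.37, 2.09, 0.39 and 1.48 in ALK/MYCN tumours 1 to 5, against 2.11, 1.97, 3.38, 3.4 and 2.94 in MYCN tumours 1 to 5. ALK/MYCN 3 lay between MYCN 2 and MYCN 1, and all other ALK/MYCN tumours were below all MYCN tumours. The difference was -1.46 ± 0.37 (SE; 0.363-fold; limma adjusted p = 0.017), with the reference above background on 1 of the 10 arrays. Beside it, the endothelial cadherin Cdh5 differed by -1.68 ± 0.28 (SE; limma adjusted p = 0.0030), and the endothelial marker list was lower as given above. Pcdh12 did not pass with stromal content as a covariate (-0.98, limma adjusted p = 0.14), with the scanner's own processed signals (-2.25, limma adjusted p = 0.055), with slide as a block (-1.49, limma adjusted p = 0.051) or in the authors' value table (-2.11, limma adjusted p = 0.065). It was -2.29 without ALK/MYCN 3 and MYCN 1, 2 and 5 (limma adjusted p = 0.0068).

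Pcdh15, a component of the tip links of inner ear hair cells, was lower on its brightest probe. It read 1.24, 1.14, 1.07, 0.32 and 0.71 in ALK/MYCN tumours 1 to 5, against 2.55, 1.89, 1.89, 1.99 and 1.8 in MYCN tumours 1 to 5. The groups did not overlap, MYCN 1 stood above the rest, and the difference was -1.13 ± 0.20 (SE; 0.458-fold; limma adjusted p = 0.0036). The reference was above background on 0 of the 10 arrays, and the difference was -2.11 with the scanner's processed signals and -1.87 in the authors' value table, so the size of the fold is uncertain. The mean over its probes differed by -0.43. It kept its call in each fit that left out 1 tumour (largest limma adjusted p = 0.012) and with stromal content as a covariate.

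The array has 6 probes for Pcdh15, of which 4 were bright enough to test, spread over 143 kb, and they did not give the same result. The probe at chr10:74105072-74105131 read 0.35, 0.71, 0.61, 0.38 and 0.18 in ALK/MYCN tumours 1 to 5, against 1.73, 0.91, 0.77, 0.91 and 0.77 in MYCN tumours 1 to 5. It too was lower without overlap, by -0.57 ± 0.19 (SE; limma adjusted p over probes = 0.047). The probe at chr10:74089451-74089510 differed by -0.07 ± 0.14 and the one at chr10:73969284-73969343 by 0.04 ± 0.09 (SE), neither of which passed. All 4 tested probes were dim, with mean log2 intensities over both channels of 6.48 to 6.8. The probe at 74089451 was above background on 1 ALK/MYCN and 5 MYCN arrays, so it entered the test largely through 1 group. The one at 73969284 was above background on 4 and 3, and the one at 74105072 on 4 and 5. The array lists each of these probes for other Pcdh15 transcripts, and the difference between probes was not tested. The sites are shown because the result depends on which is read, in order along the plus strand of mm9. The probes at 74089451 and 74105072 are given whole and have 3 and 2 reading frames free of stop codons. The brightest probe (chr10:74112334-74112393) and the one at 73969284 are given by their first 30 bases.
Pcdh15 at 73969284: gtggaatctggaactagaactgggtcctct
Pcdh15 at 74089451: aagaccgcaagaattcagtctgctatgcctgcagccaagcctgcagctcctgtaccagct
Pcdh15 at 74105072: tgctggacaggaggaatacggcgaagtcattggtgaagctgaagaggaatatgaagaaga
Pcdh15 at 74112334: ccacattttcccaatttctttaccgaaatg

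Pcdh10, which guides axons of the forebrain and is often silenced in human tumours, was lower on both of its probes. The brighter read 2.78, 1.43, 2.67, 3.4 and 3.03 in ALK/MYCN tumours 1 to 5, against 3.95, 3.46, 3.52, 3.6 and 4.18 in MYCN tumours 1 to 5. Every ALK/MYCN tumour lay below every MYCN tumour, although ALK/MYCN 4 nearly reached MYCN 2. The difference was -1.08 ± 0.32 (SE; 0.473-fold; limma adjusted p = 0.034). Its other probe read 1.21, 0.66, 1.38, 1.59 and 1.87 in ALK/MYCN tumours 1 to 5, against 2.61, 2.01, 2.2, 1.64 and 2.36 in MYCN tumours 1 to 5. On that probe the groups overlapped, through ALK/MYCN 5 and MYCN 4, and differed by -0.82 ± 0.24 (SE; limma adjusted p over probes = 0.029). ALK/MYCN 2 was the lowest tumour on both probes.

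The Pcdh10 call depended on single tumours and on the processing. It missed the threshold in 6 of the 10 fits that left out 1 tumour, those without ALK/MYCN 1 or 3 and without MYCN 1, 3, 4 or 5 (differences -0.97 to -1.14, largest limma adjusted p = 0.070). It also missed it without ALK/MYCN 3, MYCN 2 and MYCN 5 (-1.03, limma adjusted p = 0.14) and without MYCN 1 as well (-0.90, limma adjusted p = 0.28), with stromal content as a covariate (-1.28, limma adjusted p = 0.063), with slide as a block (-1.13, limma adjusted p = 0.055), with the scanner's processed signals, median centring or spike-in centring, and in the authors' value table (-0.71, limma adjusted p = 0.097). The brighter probe covers 6508 bases of chr3:45196739-45203246 (mm9, plus strand) with 60 bases of sequence and so joins exons, which makes it a read of spliced Pcdh10 RNA. It is shown whole, and the other probe (chr3:45186832-45186891) by its first 30 bases.
Pcdh10 across the junction: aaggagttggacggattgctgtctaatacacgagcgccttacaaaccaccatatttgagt
Pcdh10 second probe: gtcactcttggcatctccttattttgagtc

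Pcdh17, which recruits the WAVE complex during axon extension and acts at synapses of the basal ganglia, was the non-clustered gene that was higher in ALK/MYCN tumours. It read 2.86, 2.9, 3.25, 3.25 and 3.95 in ALK/MYCN tumours 1 to 5, against 1.8, 2.58, 2.45, 2.33 and 2.27 in MYCN tumours 1 to 5. All ALK/MYCN tumours were above all MYCN tumours, with ALK/MYCN 5 highest and MYCN 1 lowest. The reference was above background on 0 of the 10 arrays for Pcdh17, so the size of its fold is uncertain. The difference was 0.96 ± 0.21 (SE; 1.94-fold; limma adjusted p = 0.010), and it kept its call in each fit that left out 1 tumour (0.78 to 1.05, largest limma adjusted p = 0.024). It did not pass without ALK/MYCN 3 and MYCN 1, 2 and 5 together (0.85, limma adjusted p = 0.11). Its single probe (chr14:84933861-84933920, mm9, plus strand) is identified here by its first 30 bases.
Pcdh17: tccaagctacaccaaacattaacccatatt

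**Figure D3:**
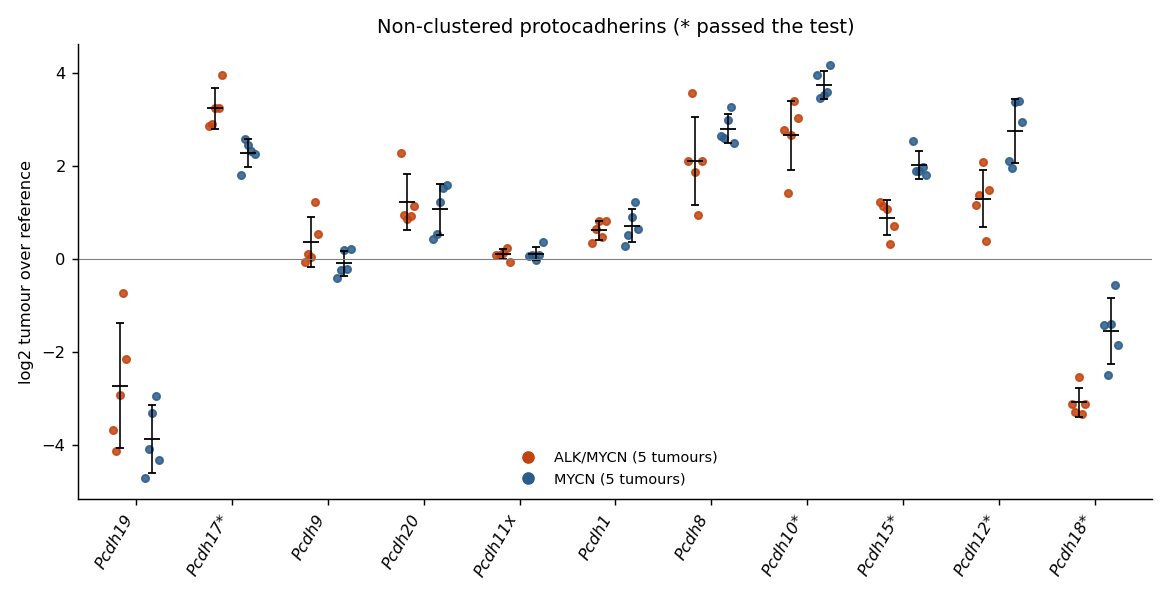
Log2 ratio of tumour over reference (vertical axis) of the 11 tested non-clustered protocadherins, with 1 point per tumour, ALK/MYCN at left and MYCN at right of each gene, and bars for the mean and SD of 5 tumours. Genes run from the largest positive difference at left to the lowest at right; those with an asterisk passed, and Pcdh19 at the left end spreads from -4.12 to -0.73 among ALK/MYCN tumours.

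The other non-clustered genes did not pass. Pcdh19, mutated in a human epilepsy, read -3.67, -4.12, -2.91, -0.73 and -2.15 in ALK/MYCN tumours 1 to 5, against -4.71, -4.07, -3.3, -2.93 and -4.32 in MYCN tumours 1 to 5. It varied most among the protocadherins within ALK/MYCN tumours (SD 1.34, n = 5), where ALK/MYCN 4 and 5 were highest, and its difference of 1.15 had a 95% interval of -0.20 to 2.50. Pcdh8, or arcadlin, which is induced by neuronal activity and helps to internalise N-cadherin, read 2.1, 3.57, 1.88, 0.94 and 2.1 in ALK/MYCN tumours 1 to 5, against 2.65, 2.61, 2.99, 3.26 and 2.5 in MYCN tumours 1 to 5. ALK/MYCN 2 was the highest of all tumours and the other 4 ALK/MYCN tumours were below every MYCN tumour. The difference was -0.69 (95% interval -1.57 to 0.20), and without ALK/MYCN 2 it was -1.05 and passed (limma adjusted p = 0.021).

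Pcdh9, widely expressed in the brain, read -0.06, 0.11, 0.04, 1.23 and 0.54 in ALK/MYCN tumours 1 to 5, against -0.4, -0.24, 0.19, -0.2 and 0.21 in MYCN tumours 1 to 5. ALK/MYCN 4 and 5 were again the highest, the other tumours overlapped, and the difference was 0.46 (95% interval -0.08 to 1.00). It was above background on 5 ALK/MYCN and 3 MYCN arrays. Pcdh20 read 2.28, 0.94, 0.87, 0.93 and 1.14 in ALK/MYCN tumours 1 to 5, against 0.44, 0.55, 1.24, 1.54 and 1.6 in MYCN tumours 1 to 5. ALK/MYCN 1 stood above all others, and the difference of 0.16 (95% interval -0.56 to 0.88) turned to -0.10 without that tumour and to about 0 (-5e-04) without MYCN 1. Pcdh1, found in airway epithelium, had an interval of -0.49 to 0.28, and the X-linked Pcdh11x one of -0.20 to 0.18.

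**Figure D4:**
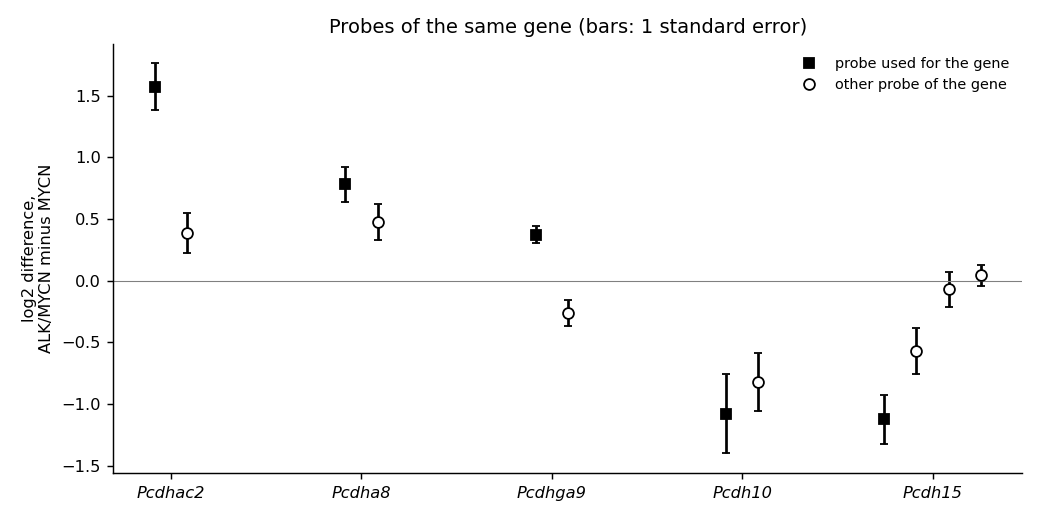
Difference in log2 ratio, ALK/MYCN minus MYCN (vertical axis, bars for 1 SE), of each tested probe of the called genes with several tested probes, ordered from brightest to dimmest within a gene. Squares are the probes used for the gene and circles the others; Pcdh10 is negative on both probes, Pcdhga9 has probes on either side of 0, and Pcdh15 runs from -1.13 to 0.04.

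The 18 called protocadherins kept their sign on all 3 slides, which each held tumours of both groups. This is fixed in advance for the 15 of them whose groups did not overlap. The Pcdhac2 difference was 0.87, 1.98 and 1.89 within slides 1, 2 and 3, and the Pcdh17 difference 1.10, 0.79 and 1.52. The Pcdh10 difference was -2.52 within slide 1 against -0.65 and -0.69 within the others, so the pair on slide 1 differed more. On slide 1 each group had 1 tumour, on slide 2 there were 3 from ALK/MYCN and 1 from MYCN, and on slide 3 the numbers were 1 and 3, so each of these values rests on a single tumour in at least 1 group.

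Genes that act with protocadherins were counted from lists chosen by known function. Of 26 measured chromatin regulators of the clustered locus, 3 were higher and 4 lower in ALK/MYCN tumours, with a median difference of -0.10, a share of calls near the 26.5% of all genes. Ctcf, which loops promoters to enhancers in the clusters, did not pass (-0.10 ± 0.08, SE). The 3 with the smallest p were the Polycomb methyltransferase Ezh2 (-0.42 ± 0.07), the histone deacetylase Hdac4 (0.55 ± 0.10) and the cohesin release factor Wapal (-0.51 ± 0.11; SE). The adjusted p was 0.0034 for Ezh2, 0.0036 for Hdac4 and 0.0073 for Wapal by limma.

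Of 25 measured partners of protocadherins (kinases, WAVE complex subunits and others, some of them membrane proteins), 9 were higher and 4 lower, with a median of -0.05. Over all genes, 14.2% were called higher and 12.2% lower. Ret, a receptor tyrosine kinase that associates with clustered protocadherins, averaged 4.86 in ALK/MYCN and 1.96 in MYCN tumours, a difference of 2.90 ± 0.35 (SE; limma adjusted p = 0.00071). Cyfip2, a subunit of the WAVE complex that protocadherin tails recruit, averaged 2.62 in ALK/MYCN and 1.22 in MYCN tumours (1.40 ± 0.19, SE; limma adjusted p = 0.0011). Prkca, a protein kinase C, averaged -0.55 in ALK/MYCN and -2.1 in MYCN tumours (1.55 ± 0.27, SE; limma adjusted p = 0.0033). The WAVE complex subunits on the list did not go one way. Besides Cyfip2, Nckap1 and Abi2 were higher, and Cyfip1 was lower (-0.49, limma adjusted p = 0.044). Wasf1, Wasf2, Wasf3 and Abi1 did not pass. Of 8 measured proteases that cut protocadherins, 2 were higher and 0 lower, a share of calls near the 26.5% of all genes. The 2 were the gamma-secretase subunits Aph1b (1.24 ± 0.19, SE; limma adjusted p = 0.0017) and Psenen (0.43 ± 0.10, SE; limma adjusted p = 0.011). Among 23 measured genes of the wider cadherin superfamily, 8 were higher and 2 lower with a median of 0.19, against 13 higher and 0 lower of 27 with a median of 0.37 among clustered protocadherins. The 13 include the calls on shared probes described above. The difference between these lists was not tested.

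The 9 genes that were not tested were above background in the tumour channel on at most 4 of 10 arrays. They were Pcdhac1, Pcdhb1, Pcdhb11, Pcdhb19, Pcdhgb1, Pcdhga5, Pcdhga10, Pcdhgc5 and Pcdh7. The 8 clustered ones differed by -0.13 to 0.22, values that lie at background and give no direction. Pcdh7 has 3 probes, none of them bright enough to test. The brightest, above background in the cell-line reference on all 10 arrays, had ratios of -2.67 to -2.01 in ALK/MYCN tumours and -2.38 to -1.34 in MYCN tumours, below the reference in each, while another had ratios of -0.88 to 0.46 in ALK/MYCN tumours and -0.81 to 0.09 in MYCN tumours.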

How the data were processed

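Total RNA of 10 tumours, each from a different mouse, was hybridised on 2-colour Agilent arrays of 60-base probes. Per the file headers, the authors extracted the spot intensities with Agilent Feature Extraction 10.7.3.1, with probe positions on mm9. The value table deposited by the authors holds log2 ratios of scanner-processed Cy3 over Cy5, found by comparison to match within 5.01e-04 on every array; its column medians lay between -0.186 and -0.035. Their later use by the authors is not stated in the labels.

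Starting from the deposited intensities, spot means were corrected for local background by normexp (offset 50), which shrinks ratios of dim probes, and normalised by loess within each array, control spots at weight 0. Outlier spots were set to missing (177 to 345 per array), 0 spots were saturated, and spots of a probe were averaged. Probes whose Cy3 signal was well above background on 5 or more arrays were kept (30851), and the brightest gave each of 22258 genes its value. Between 53.8% and 58.7% of probe spots per array were well above background. Differences are ALK/MYCN minus MYCN, from limma 3.58.1 in R 4.3.3 (two-sided moderated test; Benjamini-Hochberg over all genes, or over all kept probes where stated). The fit was also run on simulated data with independent normal noise for each gene. That simulation held no slide, strain or tissue effects, so it cannot show how the fit handles them. The number of arrays, 5 per group, limits the precision.

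Genes listed under a probe were matched by transcript to RefSeq names of GRCm38.p6, used for names only; 1 tested member, Pcdh11x, found no match. Of the 47 members, 8 had several probes. Sequences are the probes' own, from the files. Any member may be named, with values in every tumour for those that passed and for some of those that did not. Of each pathway list, at most 3 genes with the smallest p are named, besides Ctcf, Cdh5 and the WAVE complex subunits. The members, the lists and the alternatives were chosen with earlier results of these data known. Alternatives were other background corrections, centrings, filters, probes and variance models, Cy3 alone, slide or replicate number as a block, a stromal covariate (mean of the fibroblast, endothelial and macrophage markers), and fits without single tumours, without 3 tumours or, added after seeing the data, without 4. Sequences on chromosome 18 are not printed.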

Additional observations from a re-analysis of the deposited data

Results flagged for a closer look

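Within a group of 5 tumours, the highest or lowest tumour was set against the rest by Dixon's ratio (critical value 0.71) for each of the 38 tested protocadherins. It stood apart in 7 of 76 groups, and chance alone gives about 1 in 20. In ALK/MYCN tumours, Pcdh18 was higher in ALK/MYCN 3 (-2.54, the others -3.32 to -3.11), Pcdh20 in ALK/MYCN 1 (2.28, the others 0.87 to 1.14) and Pcdha9 in ALK/MYCN 2 (1, the others 0.33 to 0.47). In MYCN tumours, Pcdh15 was higher in MYCN 1 (2.55, the others 1.8 to 1.99), Pcdh11x in MYCN 5 (0.36, the others -0.01 to 0.08) and Pcdhb9 in MYCN 1 (0.08, the others -0.15 to -0.09). Pcdhb20 was lower in MYCN 4 (-0.61, the others -0.07 to 0.01).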

How the results depend on the processing

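The clustered genes gave 0 lower calls under every alternative run, and 9 to 19 higher ones. With probes above background in both channels, 9 of 14 tested clustered genes were called, and all 14 differences were positive. With spike-in centring 19 of 27 were called, against 13 of 27 in the main fit. Leaving out 1 tumour gave 12 to 14. Without a filter on dim probes the count was 13. Non-clustered higher calls were 0 with the filter on both channels, which dropped Pcdh17, and without the 4 tumours with markers of other tissues (ALK/MYCN 3 and MYCN 1, 2 and 5; added after seeing the data; 1489 of all genes higher), and 2 with spike-in centring. Non-clustered lower calls were 2 with scanner-processed signals, the value table, the filter on both channels and slide as a block, 1 with the stromal covariate, and 3 to 5 without 1 tumour. Over all genes, lower calls were 1349 with median centring, 819 with spike-in centring (8531 higher), 1539 without ALK/MYCN 3, MYCN 2 and MYCN 5, 1638 with the stromal covariate, and 1771 to 2599 without 1 tumour, against 2359 to 2950 higher ones. Calls were higher in ALK/MYCN in 53.8% of cases, in 76.8% under median centring and in 91.2% under centring on spike-in spots, where the median difference was 0.23 over all genes and 0.54 over clustered genes. The stromal covariate ended 7 of 18 calls, and the cause was not tested. Of the called members, reversed were Pcdh15 (0.043) and Pcdhga9 (-0.26) on another probe. Of the others, reversed were Pcdh20 without ALK/MYCN 1 (-0.10) and MYCN 1 (-5e-04; -0.10 to 0.29 without 1 tumour; -0.068 without the 4), Pcdhb2 in Cy3 alone (0.046), Pcdha4 with scanner-processed signals (-0.48) and the value table (-0.47), Pcdhga1 with spike-in centring (0.091) and without the 4 tumours (0.014), Pcdhb13 with spike-in centring (0.047) and Cy3 alone (0.063), and, with the stromal covariate, Pcdhb5 (-0.076), Pcdhb7 (-0.24), Pcdhb12 (-0.072), Pcdhb14 (-0.026) and Pcdh1 (0.26). Pcdhb7 also turned with scaling between arrays (-0.078), slide as a block (-0.049) and without 1 tumour (-0.11 to 0.16), and Pcdh1 with median centring (0.041), spike-in centring (0.18) and without 1 tumour (-0.21 to 0.023). Pcdh11x turned in the value table (0.034), with median centring (0.087), spike-in centring (0.22), Cy3 alone (0.12), and without 1 tumour (-0.047 to 0.052), the 3 (0.053) or the 4 tumours (0.066). None of the reversed values passed. The deviations of same-numbered tumours of the groups correlated at 0.34 for number 1 and at -0.02, -0.08, -0.09 and -0.06 for numbers 2 to 5. These values were not tested and cannot show whether the numbers pair the tumours. With the replicate block 12 clustered genes were higher, 2522 of all genes were higher and 2098 lower, and Pcdhb9 lost its call.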
